A study of Danio rerio with 13 samples.

Results

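Biotinidase is the product of the gene BTD (ENSDARG00000099596 in the deposited count table), and its transcript was followed here across the livers of 3 *tert* genotypes. BTD was 1 gene of 32105 in the table and of 16376 that passed the filter on low counts, and only 1 gene carried that symbol. It was chosen by its measured values in these same livers, namely a level that rose with each functional copy of *tert* lost. Its levels and fold changes are therefore given as a description, with no test, and nothing is supported with them.

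The livers came from male AB zebrafish aged 3 months. There were 5 wild-type fish (tert+/+), 5 fish heterozygous for the *tert* mutant line hu3430 (tert+/-) and 3 homozygous fish (tert-/-), and no fish received a treatment. Functional telomerase is lost in every cell of tert-/- fish, whereas tert+/- fish keep a functional copy. The mutation is not confined to the liver, so a difference between genotypes in the liver need not begin there. Each library was titled with its own fish number, and the spread between libraries is therefore a spread between fish, although litters and tanks were not given in the sources used here.

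Biotin is the vitamin that carboxylases carry on a lysine and use to transfer carbon dioxide. When those carboxylases are broken down the vitamin is left attached to the lysine as biocytin, and biotinidase frees it for reuse. The enzyme is secreted by the liver into plasma in mammals, and people who lack it become deficient in biotin.

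The libraries held 17801374 to 37309651 counts. Transcripts of the hepatocyte markers took 2.74% to 21.3% of the counts, and all 19 markers measured had counts in each library. However, 3 livers stood apart, here called intestine-marked. They were tert+/+ replicate 5, tert+/- replicate 3 and tert-/- replicate 1, in which the 14 intestine markers held 2.58% to 4.20% of the counts against at most 0.0373% in the other 10 livers. In tert-/- replicate 1 the intestine markers took a larger share than the hepatocyte markers (4.08% against 3.97%), which goes against its label, and in tert+/- replicate 3 the shares were close (2.58% against 2.74%). A further 2 livers, tert+/+ replicate 1 and tert+/- replicate 5, held 0.632% to 0.703% of heart muscle marker counts against at most 0.00323% elsewhere, and these are called heart-marked. Mitochondrially encoded transcripts took 7.93% to 54.7% of the counts. In bulk tissue of this kind, fewer cells of a type and less RNA per cell cannot be told apart. No pair of the 78 pairs of libraries agreed within counting noise (lowest chi-square per degree of freedom 86.1), so each was kept as a sample of its own.

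BTD was low in all tert+/+ livers. In counts-per-million scaled by the trimmed mean of M values (TMM-normalized CPM), it stood at 5.62, 2.83, 4.23, 2.11 and 1.04 in tert+/+ replicates 1 to 5. These values rested on 122, 105, 113, 22 and 37 counts, so that the lowest count, 22, carried an exact 95% Poisson interval of 13.8 to 33.3 that covers counting error only. The tert+/- livers were close to each other and all higher, at 8.97, 10.7, 6.94, 7.59 and 11.4 TMM-normalized CPM. In tert-/- the 3 livers were spread widely, at 9.09, 14.3 and 32.9 TMM-normalized CPM. Every mutant liver lay above every tert+/+ liver, whereas the tert+/- and tert-/- livers overlapped, since tert-/- replicate 1 lay within the range of tert+/-.

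**Figure D1:**
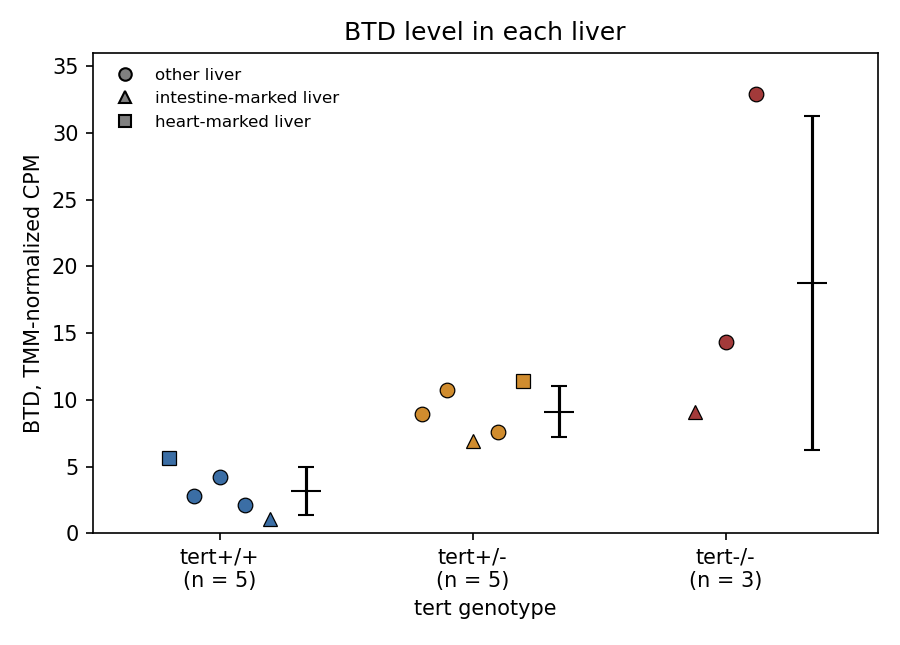
TMM-normalized CPM of BTD (vertical axis) in each of 13 livers by *tert* genotype, with triangles for the intestine-marked livers, squares for the heart-marked livers and bars for the mean and SD of each genotype. The highest tert+/+ liver stands at 5.62 and the lowest mutant liver at 6.94, and a single tert-/- liver reaches 32.9.

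The mean of BTD was 3.16 ± 1.796 (SD, n = 5) TMM-normalized CPM for the tert+/+ genotype. The heterozygous livers averaged 9.12 ± 1.92 (SD, n = 5). The homozygous livers averaged 18.8 ± 12.5 (SD, n = 3). The ratio of means was 2.88 between tert+/- and tert+/+, 5.94 between tert-/- and tert+/+ and 2.06 between tert-/- and tert+/-. As a share of the mean, the spread was 21.1% in tert+/-, 56.7% in tert+/+ and 66.6% in tert-/-. This order of spread held for TMM-normalized CPM and not for every measure, since per hepatocyte marker count it was 90.8% in tert+/-, 51.2% in tert+/+ and 63.8% in tert-/-. On the log2 scale of the fitted model the change was 1.52 (SE 0.45) from tert+/+ to tert+/-, 2.57 (SE 0.50) from tert+/+ to tert-/- and 1.04 (SE 0.50) from tert+/- to tert-/-. The step between the mutant genotypes rested largely on tert-/- replicate 3, without which it was 0.36.

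By TMM-normalized CPM the lowest liver of each genotype was the one with intestine markers, an order that other denominators changed, as given below. The intestine-marked liver had the lowest BTD of its genotype in all 3 genotypes, at 1.04, 6.94 and 9.09 TMM-normalized CPM, or 0.281, 0.718 and 0.385 of the mean of the other livers of that genotype. The hepatocyte markers were also lowest in those livers, at 4.50%, 2.74% and 3.97% of the counts against 7.05% to 21.3% in the others. Such an order was common, as 2528 of the 16376 genes tested (15.4%) had the intestine-marked liver lowest in each genotype. At the other end, the heart-marked livers held the highest BTD of tert+/+ and of tert+/-, at 5.62 and 11.4 TMM-normalized CPM. The share of all genes with that order is not given here, so it cannot be called unusual. The part of these tissues in the level of BTD was not tested. Without the 3 intestine-marked livers the genotypes no longer overlapped in TMM-normalized CPM, and the log2 change from tert+/+ to tert-/- was 2.66 (SE 0.42). Leaving out the heart-marked livers as well gave 2.94. Under the relative log expression and upper quartile scalings, and with nuclear counts as the denominator, the genotypes stood apart without the intestine-marked livers. By nuclear counts the gap was narrow, with tert+/- replicate 5 at 15.79 CPM and tert-/- replicate 2 at 15.87. An overlap remained with library totals and with hepatocyte marker counts. By library totals tert+/- replicate 5 (14.5) lay above tert-/- replicate 2 (10.7). Per hepatocyte marker count tert+/+ replicate 1 (46.3) lay above tert+/- replicates 2 and 4 (43.6 and 44.6).

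The denominator decided whether the genotypes stood apart. Under the relative log expression and upper quartile scalings and with nuclear counts as the denominator, every tert+/+ liver remained below every mutant liver. Scaled by library totals alone, tert+/+ replicate 1 stood at 6.85 CPM of BTD and tert+/- replicate 3 at 6.43, so the groups overlapped there. The scaling moved tert+/+ replicate 4 most, in which mitochondrially encoded transcripts took 54.7% of the counts, and its BTD was 1.03 CPM by library totals and 2.11 after TMM. When counts of the hepatocyte markers were the denominator, the tert+/+ livers held 46.3, 15.0, 22.4, 14.6 and 31.1 counts-per-million. The tert+/- livers held 49.7, 43.6, 234.5, 44.6 and 78.8 on that scale, and 2 of them lay below the highest tert+/+ liver. The tert-/- livers held 352.9, 94.3 and 175.1. In contrast to the order by CPM, the intestine-marked liver was the highest of its genotype in tert+/- and tert-/- by this measure and the second highest in tert+/+. The ratio of the tert-/- mean to the tert+/+ mean was 8.005 per hepatocyte marker count, 6.04 by library totals and 5.999 by nuclear counts.

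**Figure D2:**
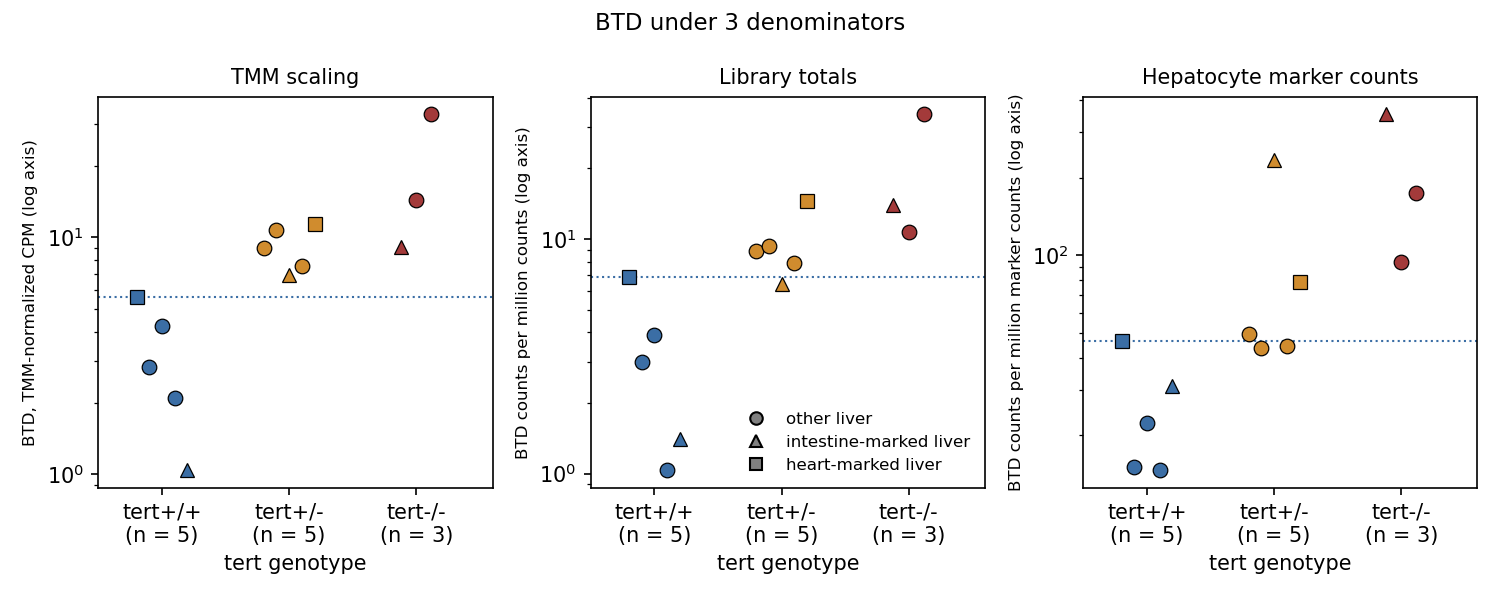
BTD in each liver (log vertical axes) as TMM-normalized CPM, as counts-per-million of the library total and as counts-per-million of the hepatocyte marker counts, by *tert* genotype with n = 5, 5 and 3, with triangles for intestine-marked and squares for heart-marked livers. The dotted line marks the highest tert+/+ liver (5.62, 6.85 and 46.3), which no mutant liver falls below in the first panel, 1 does in the second and 2 do in the third.

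The deposited table of RPKM (reads-per-million scaled by gene length in kilobases) gave other values for BTD. It listed 2.71, 2.75, 2.39, 0.691 and 0.554 in tert+/+, 3.70, 3.51, 3.60, 3.17 and 10.49 in tert+/-, and 9.83, 5.94 and 30.2 in tert-/-. Recomputed from the counts with each library's own total and a length of 1789 bases, the values were 3.83, 1.68, 2.18, 0.576 and 0.783 in tert+/+. They were 4.97, 5.20, 3.60, 4.40 and 8.12 in tert+/- and 7.84, 5.96 and 19.02 in tert-/-. The deposited value of BTD differed from the recomputed value by factors of 0.675 to 1.64, because the deposited values had been divided by the totals of other libraries in a repeating order down the table. For BTD only tert+/- replicate 3 had been divided by its own total. The ratio of the tert-/- mean to the tert+/+ mean was 8.41 in the deposited RPKM and 6.04 in the recomputed RPKM. Among all tested genes, recomputed RPKM placed BTD at percentiles 30.7 to 64.8 in the tert+/+ livers, 66.2 to 77.2 in the tert+/- livers and 72.0 to 88.8 in the tert-/- livers. It was a gene of middling abundance in wild-type liver.

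The trend over functional *tert* copies lost (0, 1 or 2) was fitted to all 16376 genes. BTD had a log2 slope of 1.31 (SE 0.25) per copy, and its p was the second smallest, after pglyrp6, which encodes a peptidoglycan recognition protein. In the contrasts behind the trend it ranked 2 for tert-/- against tert+/+, 11 for tert+/- against tert+/+ and 223 for tert-/- against tert+/-. By slope alone BTD was less extreme. Among the 9940 genes that averaged 1 or more in log2 CPM, it had the 35th steepest rise, and its SE was larger than that of 64.2% of them. The rank ran from 1 to 4 over the other scalings, filters, tools and units and without the marked livers. Leaving out single livers, it was 1 to 6 except without tert-/- replicate 3, when it was 26 with a slope of 1.08.

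No gene passed an adjusted p of 0.05 in edgeR's quasi-likelihood test with Benjamini-Hochberg adjustment, for the trend or for any of the 3 contrasts (0% of 16376 genes in each). DESeq2 called 1 gene for the trend, which was BTD, on the values that chose it. An unadjusted p under 0.05 from edgeR was reached by 203 genes (1.24%) for the trend, 189 (1.15%) for tert-/- against tert+/+, 218 (1.33%) for tert+/- against tert+/+ and 184 (1.12%) for tert-/- against tert+/-. An even spread of p would put a share of 0.05 of all genes there, so fewer passed than that. The reason was not tested, and the lack of calls does not show that the genotypes are alike.

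The other leaders of the trend had a different shape from BTD. The 10 genes with the smallest p comprised 9 that were higher with copies lost and 1 that was lower, si:zfos-632h11.5. Their highest liver was the intestine-marked tert-/- replicate 1 for 8 of the 10, and 3 of them were members of the exocrine pancreas marker list, which took 0.797% of the counts in that liver and at most 0.0557% elsewhere. For pglyrp6, that liver held 15.4 TMM-normalized CPM and the next highest liver 14.9 times less. The digestive protease gene prss59.2 stood at 675.9 in the same liver and at 2.30 to 69.5 in the other 12, and the insulin gene ins at 25.1 and at 0 to 0.940. Without the 3 intestine-marked livers pglyrp6 fell to rank 632, whereas BTD stayed at rank 2 and si:zfos-632h11.5 stood at rank 8. In TMM-normalized CPM, BTD was the only one of the 10 with no overlap between tert+/+ and mutant livers, whereas by library totals it overlapped. BTD was chosen on these values, so its contrast with the other leaders is only a description.

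**Figure D3:**
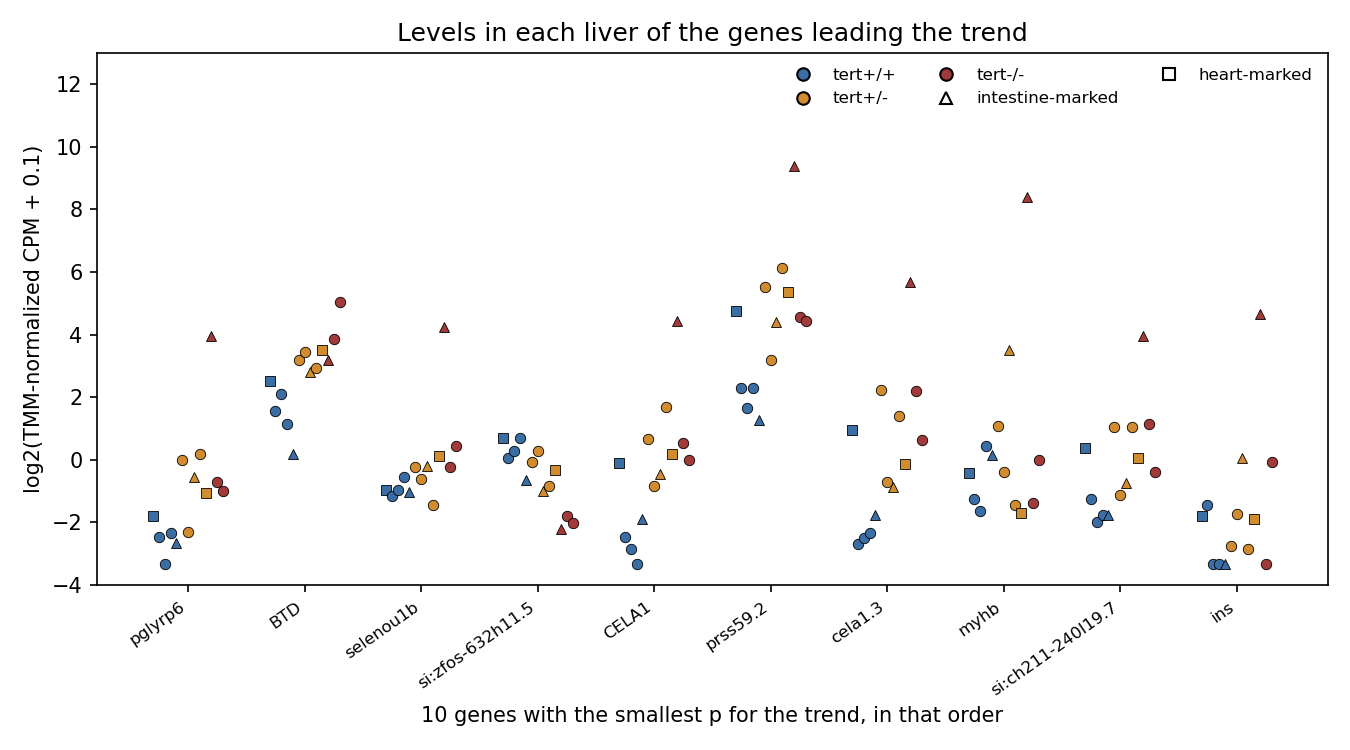
Level of the 10 genes with the smallest p for the trend, as log2(TMM-normalized CPM + 0.1), in each of 13 livers coloured by genotype, with triangles for intestine-marked and squares for heart-marked livers. For 8 genes the highest point is the intestine-marked tert-/- liver, while BTD steps up from tert+/+ (1.04 to 5.62 CPM) to tert+/- (6.94 to 11.4 CPM).

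Few genes ran the course of BTD. In TMM-normalized CPM, 2 genes (0.0122% of 16376) had every mutant liver above every tert+/+ liver, BTD and ABCA12 (ENSDARG00000074749), and 1 gene (0.00611%), ENSDARG00000074225, had every mutant liver below. ABCA12 encodes a lipid transporter known from human skin. It stood at 0.0461, 1.83, 0.0374, 0 and 0.927 TMM-normalized CPM in tert+/+, at 5.74, 3.59, 11.1, 7.20 and 6.004 in tert+/- and at 3.47, 10.48 and 4.70 in tert-/-. Its mean did not rise again between the mutant genotypes, at 6.72 ± 2.75 (SD, n = 5) and 6.22 ± 3.74 (SD, n = 3). The mean of BTD did rise there, but that rise rested largely on tert-/- replicate 3 and the mutant genotypes overlapped. The levels of ENSDARG00000074225 were 7.31 to 11.03 in tert+/+, 3.99 to 6.26 in tert+/- and 2.56 to 7.21 in tert-/-. With the further condition that the median of tert-/- exceed that of tert+/-, BTD was the 1 gene left (0.00611%), a count that the choice of BTD fixes. Scaled by library totals, the genes on this course were KRI1 and stm in place of BTD, both named after their values were seen.

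Among the 10 livers that were not intestine-marked, 31 of the 16376 genes tested ran this course in TMM-normalized CPM and 13 its mirror image. For 5 of the 31, the 3 genotypes stood fully apart and rising. These were BTD, *tert* itself, acot17, zgc:194285 and znf970, and TBC1D9B stood fully apart and falling. The *tert* transcript stood at 2.03, 0.484, 0.673 and 2.398 TMM-normalized CPM in those tert+/+ livers, 3.32, 2.68, 3.41 and 2.71 in tert+/- and 5.68 and 3.96 in tert-/-. Over the 10 livers the slope of *tert* was 0.93 (SE 0.29) per copy lost, on the same values that placed it among these genes. In the intestine-marked livers *tert* was at 11.4, 9.80 and 4.94. Over all 13 livers its slope was 0.26 (SE 0.41) per copy lost (unadjusted p = 0.532, edgeR quasi-likelihood test). A transcript level of *tert* does not check the label here, since hu3430 is a point mutation and transcripts that carry it are still counted. Of the 31, 16 averaged 1 or more in log2 CPM, and BTD had the third steepest slope of these over 10 livers, 1.33 (SE 0.20), after GPR161 (2.48, SE 0.60) and si:ch211-285j16.4 (1.35, SE 0.50). GPR161, a receptor that restrains Hedgehog signalling, stood at 0.224 to 1.93 in those tert+/+ livers, 4.70 to 29.3 in tert+/- and 20.2 and 24.3 in tert-/-. In the intestine-marked livers it was at 1.601, 2.24 and 0.544, so that the step was absent there. The genes of this paragraph other than BTD and *tert* were chosen after their values were seen. Of them, acot17, zgc:194285 and znf970 rested on few counts, 455, 245 and 186 over all 13 livers. How many of the 16376 genes would run such courses by chance in so few livers was not tested.

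Likeness to BTD was measured as Pearson's r of log2 CPM over the 13 livers, among the 9939 other genes that averaged 1 or more. The livers share their tissue content, so these values are a description. The most alike were DOCK6 (r = 0.738), PTCH1 (r = 0.707), SLC48A1 (r = 0.702), SARS2 (r = 0.696), GSTM3 (r = 0.674), ENSDARG00000103590 (r = 0.673), MGAT4B (r = 0.671), nlk1 (r = 0.667), ADNP2 (r = 0.666) and rapgef3 (r = 0.655). They include PTCH1, the Hedgehog receptor, SLC48A1, a haem transporter, SARS2, the mitochondrial seryl-tRNA synthetase, and GSTM3, a glutathione transferase. None of the 10 had tert+/+ livers apart from the mutants. SARS2, for example, stood at 4.41 to 5.44 TMM-normalized CPM in tert+/+, 4.90 to 7.23 in tert+/- and 5.28 to 9.83 in tert-/-.

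The genes most opposite to BTD were VPS72 (ENSDARG00000063718, r = -0.814), PACS1 (r = -0.767), STARD3NL (r = -0.764), ATG4C (r = -0.757) and tmem176l.3a (r = -0.754). VPS72 encodes a chaperone that brings a histone variant into chromatin. Its level was 2.99, 6.14, 5.39, 3.64 and 4.58 TMM-normalized CPM in tert+/+, 2.23, 2.53, 3.13, 4.06 and 2.50 in tert+/- and 3.33, 2.28 and 1.15 in tert-/-. The groups overlapped, and the liver with the most BTD had the least VPS72. Both lists were unstable. Of the 10 genes most like BTD, 3 were among the 10 most alike by Spearman's rho, 5 under scaling by library totals, 1 (SARS2) over the 10 livers that were not intestine-marked, and 0 after the mean of each genotype had been removed. Of the 5 most opposite, 3, 0, 1 (VPS72) and 0 were again among the 5 most opposite in those settings. What changed was the place in the order, since the coefficients of all 10 genes most like BTD stayed above 0 in each setting. With genotype means removed, their r ran from 0.404 (SARS2) to 0.852 (DOCK6). The 10th highest r of all genes was then 0.898. Under scaling by library totals the r of VPS72 was -0.405 and that of PACS1 -0.138.

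A list of genes linked to biotin was examined next. The list held 13 tested genes, the carboxylases that carry biotin, the synthetase that attaches it and transporters. For the trend 5 were higher and 8 lower with copies lost, 0 of 13 passed an unadjusted p of 0.05 (the smallest was 0.244, edgeR quasi-likelihood test), against 1.24% of all genes, and their median log2 slope was -0.07, against -0.00 over all genes tested. In each of the 3 contrasts, 0 of the 13 passed as well, against 1.12% to 1.33% of all genes. At such shares a list of this length would seldom hold a gene that passed, so the count is not a result about these genes.

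Pyruvate carboxylase (PC), which makes oxaloacetate, has 2 genes here, with log2 slopes of 0.07 (SE 0.18) for ENSDARG00000051939 and -0.10 (SE 0.35) for ENSDARG00000098766. The acetyl-CoA carboxylases, which make the malonyl-CoA used in fatty acid synthesis and its control, had slopes of 0.13 (SE 0.52) for ACACA and 0.38 (SE 0.35) for ACACB. The subunits of propionyl-CoA carboxylase had slopes of -0.07 (SE 0.17) for PCCA and -0.10 (SE 0.25) for PCCB. Those of methylcrotonyl-CoA carboxylase, an enzyme of leucine breakdown, had slopes of -0.13 (SE 0.22) for MCCC1 and -0.15 (SE 0.23) for MCCC2. None of these carboxylase slopes exceeded 2 times its SE. The synthetase gene hlcs, whose product attaches biotin to the carboxylases, had a slope of -0.12 (SE 0.18), and its TMM-normalized CPM averaged 6.05 ± 3.05 (SD, n = 5) in wild-type livers, 5.21 ± 0.869 (SD, n = 5) in heterozygotes and 5.21 ± 1.404 (SD, n = 3) in homozygotes.

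Among the transporters, SLC5A6, which carries biotin and pantothenate, has 2 genes with slopes of -0.10 (SE 0.26, ENSDARG00000014599) and -0.00 (SE 0.19, ENSDARG00000042859). SLC19A3 is a thiamine transporter whose loss in people causes a disease that responds to biotin. Its counts lay almost wholly in the intestine-marked livers, which held 9.86, 8.68 and 7.28 TMM-normalized CPM against at most 0.192 in the other 10, and its slope of 0.09 had an SE of 1.13. The related slc19a3a had the largest slope of the list, 0.45 (SE 0.37), and was likewise highest in the intestine-marked liver of each genotype, at 3.17, 2.55 and 6.35.

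**Figure D4:**
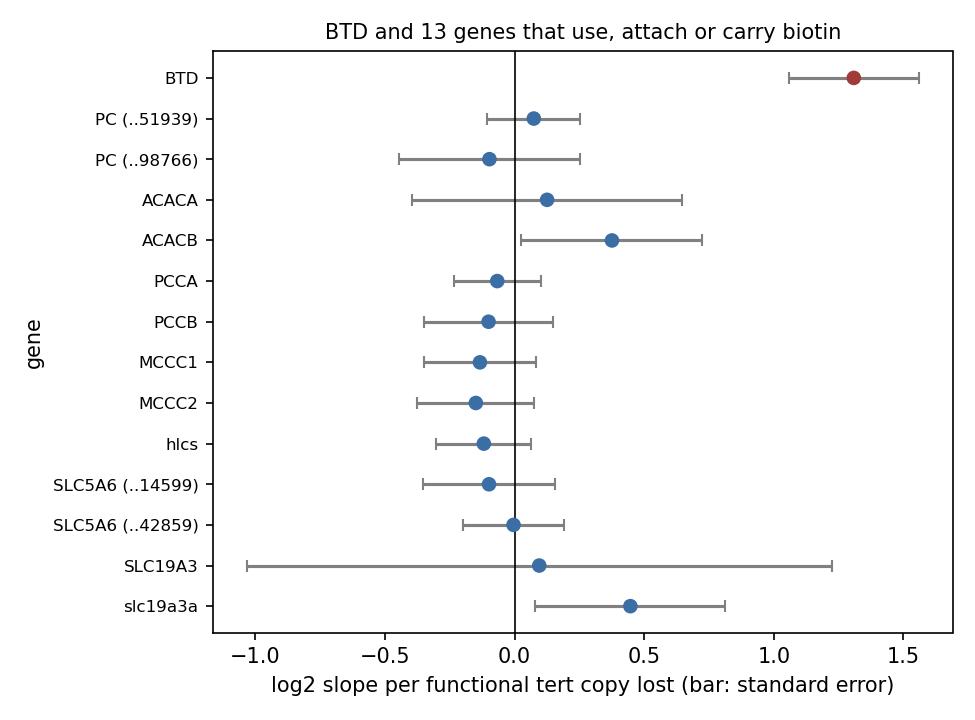
Log2 slope per functional *tert* copy lost (points) with its standard error (bars) for BTD and the 13 genes of the biotin list, with the last 5 digits of the identifier where a symbol has more than 1 gene. The list includes the thiamine transporter gene SLC19A3 and the related slc19a3a. BTD stands at 1.31, while the 13 others lie between -0.15 and 0.45.

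In TMM-normalized CPM, several of these genes shared the low level of BTD in the intestine-marked livers. The intestine-marked liver was the lowest of its genotype throughout for 5 of the 13, both PC genes, ACACA, PCCB and MCCC2, and the highest for 3, ACACB, SLC19A3 and slc19a3a. Of all genes tested, 15.4% and 19.7% ran these orders. ACACA, for example, stood at 132.4, 119.7 and 151.5 TMM-normalized CPM in these livers, whereas the other 10 held 670.8 to 3096. Per length, most of the list was more abundant than BTD in wild-type liver. Median recomputed RPKM in tert+/+ was 1.68 for BTD, 3.46 for hlcs, 24.1 for MCCC1, 43.9 for MCCC2 and 109.1 for ACACA. In tert-/- livers it was 7.84 for BTD, 2.95 for hlcs and 152.8 for ACACA.

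The pathways downstream of the carboxylases and the relatives of BTD were described in the same way for the trend, for which 1.24% of all genes passed an unadjusted p of 0.05, so that a count of 0 or 1 in lists of these lengths is near the background. For breakdown of branched-chain amino acids and propionate, 9 of 18 genes were higher and 9 lower, and 0 passed. For gluconeogenesis, 4 of 4 were lower, with slopes of -0.14 to -0.01, and 0 passed. Fatty acid synthesis had 7 of 10 higher and 3 lower, with a median log2 slope of 0.48. The only member to pass was ACLY (ENSDARG00000099079), which makes cytosolic acetyl-CoA, with a slope of 0.69 (SE 0.31, unadjusted p = 0.0412, edgeR quasi-likelihood test). It stood at 28.6 to 54.9 TMM-normalized CPM in tert+/+, at 38.8 to 202.0 in tert+/- and at 128.5, 29.1 and 138.8 in tert-/-, so its groups overlapped. The other ACLY gene of the list, ENSDARG00000055652, had a slope of -0.16 (SE 0.45). Biotinidase belongs to the nitrilase superfamily, of which NIT1, NIT2 and UPB1 were tested. Their slopes were 0.05 (SE 0.22), -0.05 (SE 0.15) and 0.10 (SE 0.32), and 0 of 3 passed.

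BTD and *tert* lie on the same chromosome. In the RefSeq annotation of the assembly GRCz12tu, which is not the GRCz10 build on which the counts were made, both were on chromosome 19, with 54 genes between them, 41 of them protein coding, of the 1313 listed there. Position played no part in the choice of BTD. Of the 461 tested genes placed on that chromosome, 5 (1.08%) had an unadjusted p under 0.05 for the trend, against 1.24% of all genes. They were BTD, sema6ca, stm, MLLT11 and TRIQK. The place of BTD among them was fixed by its choice, so the share is not independent of that choice. Few counts lay behind stm and MLLT11, 101 and 197 over all 13 livers. Counted in tested genes from BTD, stm lay 15 away, MLLT11 68 and TRIQK 292, all outside the sets of 20 described next. In the 20 tested genes nearest to BTD, 10 slopes were above 0 and 10 below, from -0.58 to 0.55, and 0 passed. In the 20 tested genes nearest to *tert*, 9 were above 0 and 11 below, and 1 passed, sema6ca (log2 slope -0.75, SE 0.23, unadjusted p = 0.0061, edgeR quasi-likelihood test), which encodes a semaphorin. Its level was 27.7, 5.73, 8.23, 11.9 and 13.2 TMM-normalized CPM in tert+/+, 8.495, 7.38, 6.45, 4.90 and 10.6 in tert+/- and 7.53, 3.35 and 3.41 in tert-/-, and the groups overlapped. The 20 tested genes between *tert* and BTD, of which 0 passed, all belong to one or other of these sets and add no further count. At a share of 1.24% a set of 20 would seldom hold a gene that passed.

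**Figure D5:**
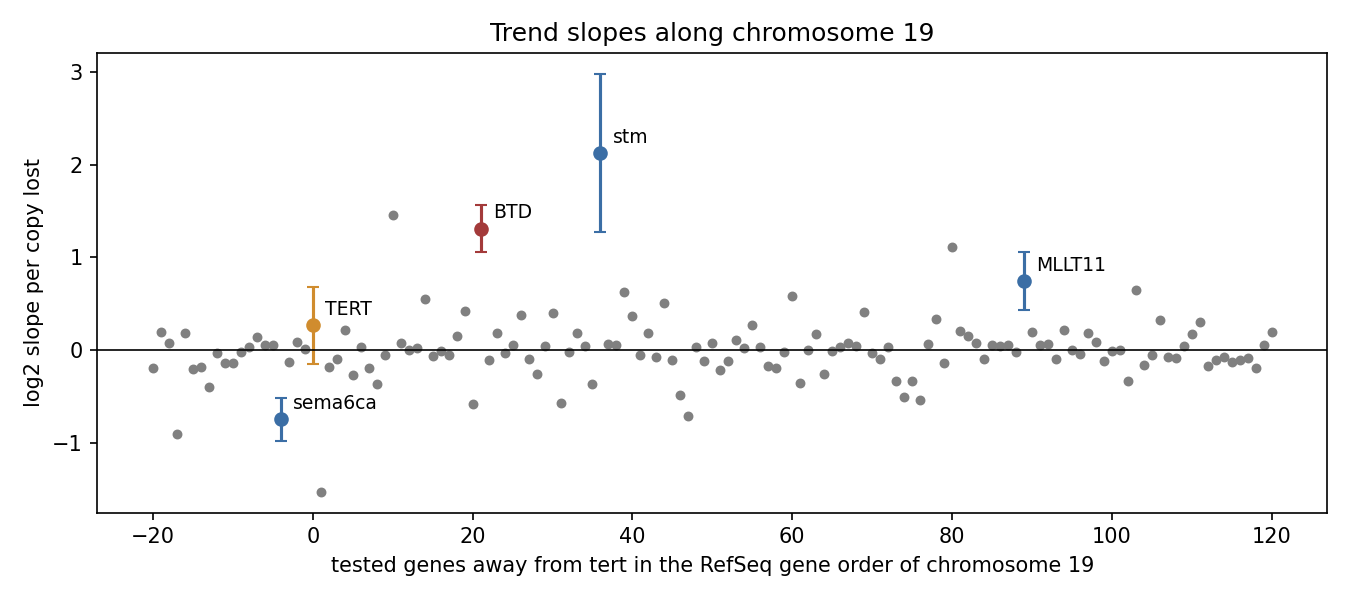
Log2 slope per functional *tert* copy lost (vertical axis) against position in the gene order of chromosome 19 counted in tested genes from *tert* (horizontal axis), with standard errors for the named genes. BTD stands at 1.31 while the 20 tested genes nearest to it lie between -0.58 and 0.55.

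The genes that flank BTD in the human genome were a separate list, of which 5 of 6 could be tested. HACL1, COLQ, ANKRD28, DPH3 and OXNAD1 had slopes of -0.43 to 0.22, 2 were above 0 and 3 below, and 0 of 5 passed an unadjusted p of 0.05, against 1.24% of all genes. VPS72 is a symbol of 2 identifiers in the table. RefSeq places vps72a on chromosome 19, with 11 genes between it and *tert*, and vps72b on chromosome 16, and which of them is the identifier most opposite to BTD was not settled from the files.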

How the data were processed

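Per the labels, liver RNA was made into Illumina TruSeq v2 libraries, and the submitters' processing notes list GRCz10 as the build, with alignment software STAR (2.4.1d), featureCounts (1.4.6-p4) and, for base call conversion, bcl2fastq (1.8.4). The kit does not mark strand, so reads of overlapping antisense genes cannot be told apart. The authors deposited raw counts per gene and RPKM values, and the RPKM were found to be divided by library totals in a repeating order rather than by each library's own total. The study's methods name kallisto, which does not describe these tables.

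Counts were fitted with edgeR 4.0.16 (quasi-likelihood test, TMM, filterByExpr by genotype), for the trend over copies lost and for the genotypes, all 13 livers in each fit, with Benjamini-Hochberg adjustment over 16376 genes. DESeq2 1.42.0 and limma 3.58.1 (voom, or log2(RPKM + 0.1)) were alternatives. Log2 CPM used a prior count of 2. Thresholds of 1% and 0.1% of counts set the intestine-marked and heart-marked livers. The fits were tested on simulated data that had less spread than these livers and no mixing of tissues. That run therefore does not measure how the fits perform on these livers. Gene names came from an Ensembl identifier table, and 16469 symbols matched 1 RefSeq symbol each, of which 11667 were tested.

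BTD and the lists were chosen with earlier results of these data known. The genes named were BTD and *tert*, the 10 most and 5 least like BTD, the 10 with the smallest trend p, the biotin list, and members of other lists and neighbours past an unadjusted p of 0.05. Coordinates and sequences are not given here.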

Additional observations from a re-analysis of the deposited data

Results flagged for a closer look

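For BTD, *tert* and the 13 biotin genes, the gap between the most extreme liver and the next was compared with the range in each of the 30 groups of 5 livers. In 7 groups 1 liver stood apart. Chance does so in about 1 in 20 groups of independent, normally spread values, whereas these groups share the same livers. BTD had none in tert+/+ or tert+/-, and the tert-/- livers were not examined in this way. In 6 of the 7 groups the liver that stood apart was an intestine-marked one, tert+/+ replicate 5 or tert+/- replicate 3. *tert* stood at 11.4 TMM-normalized CPM in tert+/+ replicate 5 (others 0.484 to 2.398) and at 9.80 in tert+/- replicate 3 (others 2.68 to 3.41). SLC19A3 stood at 9.86 in tert+/+ replicate 5 (others 0 to 0.192) and at 8.68 in tert+/- replicate 3 (others 0 to 0.0630). ACACB stood at 171.0 in tert+/+ replicate 5 (others 19.3 to 60.5). PC (ENSDARG00000098766) stood at 37.9 in tert+/- replicate 3 (others 285.8 to 364.9). MCCC1 stood at 117.6 in tert+/+ replicate 3, which was not intestine-marked (others 39.8 to 62.0).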

How the results depend on the processing

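The log2 slope of BTD per copy lost ran from 1.16 to 1.48 over 14 alternatives in scaling, filter, tool, unit and livers used, and from 1.08 to 1.46 leaving out single livers. The log2 change from tert+/+ to tert-/- ran from 2.34 to 2.94 and from 1.89 to 2.90, that from tert+/+ to tert+/- from 1.05 to 1.76 and from 1.298 to 1.84, and that from tert+/- to tert-/- from 0.86 to 1.45 and from 0.36 to 1.37. All of these moved by less than the pooled SD of log2 CPM within genotypes, 0.74. That SD is a spread between single livers and not an error of the fits. Within it, the step from tert+/- to tert-/- fell from 1.04 to 0.36 without tert-/- replicate 3. At an adjusted p under 0.05, DESeq2 called 1 gene for the trend, 3 for tert-/- against tert+/+ (BTD, si:zfos-632h11.5 and zgc:171470) and 2 for tert-/- against tert+/- (zgc:171470 and ENSDARG00000099419), where edgeR called 0. The DESeq2 log2 changes of zgc:171470 were -27.2 and -26.9 (SE 3.08 in each), too large to be read as an effect size. That of ENSDARG00000099419 was -8.57 (SE 1.84). Without the intestine-marked livers edgeR called 1 gene for the trend, SLC5A11, named after its values were seen. Leaving out single livers, edgeR called 0 in every case. No gene of the biotin list passed an unadjusted p of 0.05 under RLE scaling or without the intestine-marked livers. Omission of the heart-marked livers and the likeness within genotypes were chosen after seeing the data. No paired analysis was possible because the replicate numbers were given in accession order and pair no fish. With 3 tert-/- livers, 1 of them intestine-marked, the level of BTD in that genotype is poorly fixed.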
